A study of Sus scrofa with 60 samples.

Results

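The genes described here are 36 genes of fatty acid oxidation in the liver of neonatal pigs (Sus scrofa), chosen by gene symbol from a table of 30335 named features. They comprise 15 genes of mitochondrial oxidation, 14 genes of peroxisomal oxidation, and 7 peroxins. Of the 36 genes, 35 had enough counted reads to be tested. The exception was ABCD2, a peroxisomal transporter of very long chain fatty acids, which had between 0 and 2 counted reads in any library and 0 in every SLE library, at or under the floor of 3 counts, so no comparison is given for it.

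RNA was sequenced from the liver in 60 libraries, each counted here as 1 pig. The pigs were of both sexes and were born by cesarean section shortly before term to Landrace and Hampshire sows. On day 1, each pig was given sham surgery or bile duct ligation (BDL), which closed the cystic and the common bile duct, and was then kept for 14 days on enteral formula (ENT), on parenteral nutrition with a soy lipid emulsion (SLE), or on parenteral nutrition with a mixed lipid emulsion (MLE). Sham groups held 12 pigs on ENT, 10 on SLE, and 9 on MLE, and BDL groups 10, 11, and 8 pigs in the same order of diets. All pigs carried a jugular catheter and received parenteral nutrition (PN) on the first day, those on ENT were fed by orogastric tube and moved to full feeds over the first week, and energy intake was matched between diets. PN therefore differed from ENT in route, in composition, and in the lipid, and these cannot be told apart in a comparison of PN with ENT.

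Mitochondria take up long chain fatty acids as carnitine esters, through the carnitine-acylcarnitine carrier SLC25A20 and the inner membrane transferase CPT2. Each turn of β-oxidation then starts with an acyl-CoA dehydrogenase chosen by chain length, whose electrons pass through the flavoprotein ETFA-ETFB to ETFDH and the respiratory chain, and ends with a thiolase. Isomerases and reductases such as ECI1, ECI2, and DECR1 prepare unsaturated chains. Peroxisomes shorten very long, branched, and dicarboxylic chains and the side chain of bile acid precursors, and hand the products on as carnitine esters. Peroxins (PEX) build the peroxisome and import its enzymes from the cytosol. In the newborn liver, oxidation of milk or infused fat is a main source of energy.

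The libraries held 14469788 to 21374161 counted reads (median 17254606), and each of the 35 tested genes had at least 150 counted reads in every library. ENT-sham replicate 2 and ENT-BDL replicate 1 stood apart from the other libraries, since their counts differed from each other by a chi-square per degree of freedom of 2.01 over 12506 genes, against 18.6 for the next closest of 1770 pairs. Although the labels give them as different pigs with different surgery, 1 animal or library may stand under both labels, in which case 1 of the surgery labels would be wrong and 1 of the ENT groups would hold 1 pig fewer, and this was not tested. Over the 35 tested genes their levels had a ratio of 0.868 to 1.07, and ENT-sham replicate 2 was the lowest ENT-sham library for 28 of these genes. For the 35 genes, comparisons that involve ENT are therefore given with and without both libraries, as the number of genes that passed, the genes whose call changed, and the furthest that a kept log2 fold change moved. SLE-BDL replicate 2 was the lowest library of its group for 22 of the 35 genes, while MLE-BDL replicate 2 was the highest of its group for 20 and SLE-sham replicate 6 for 18. The labels of SLE-sham replicates 9 and 10 name 1 pig identifier for both, but these libraries differed by 39.6 on the chi-square scale, within the range of other pairs of a group. Both were kept as separate pigs, and whether SLE-sham holds 1 pig fewer was not tested. The liver markers ALB, TTR, APOA1, APOB, SERPINA1, FGB, AHSG, TAT, and CPS1 were detected in every library.

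Levels are given as CPM, a gene's counted reads relative to the library's total after scaling by the trimmed mean of M values (TMM), and, between genes, as CPM per kb of transcript length. A gene passed the test when its adjusted p was under 0.05 in edgeR's quasi-likelihood test across 16210 genes. Fold changes are on the log2 scale of that fit, as the first group minus the second, with their SE. None of the 35 genes passed both this threshold and a fold change of 2 in any comparison. Of all tested genes, 3.39%, 1.49%, and 3.78% did so after BDL on ENT, SLE, and MLE. In sham pigs 5.24% did so on SLE and 3.71% on MLE against ENT, in BDL pigs 3.13% and 3.18%, between the PN groups 0.463% in sham and 0.37% in BDL pigs, and in the interactions introduced last 1.06%, 0.0247%, and 0.197%.

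Catalase (CAT), which destroys the hydrogen peroxide made by peroxisomal oxidases, had the highest level per length at 715 CPM per kb over all libraries. The lowest of the tested peroxisomal oxidation genes was HACL1, the lyase of α-oxidation, with 8.56 CPM per kb. Among the mitochondrial genes, ETFA was highest with 164 CPM per kb and CPT2 lowest with 18.5 CPM per kb. The peroxins were low, from 23.4 CPM per kb for PEX5, the import receptor, to 6.60 CPM per kb for PEX6, an ATPase that recycles it. The table's length of PEX19, 10756 bases, is the longest of the genes described and lowers its level per length to 9.18 CPM per kb, although its CPM of 98.7 was the highest of the peroxins.

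**Figure D1:**
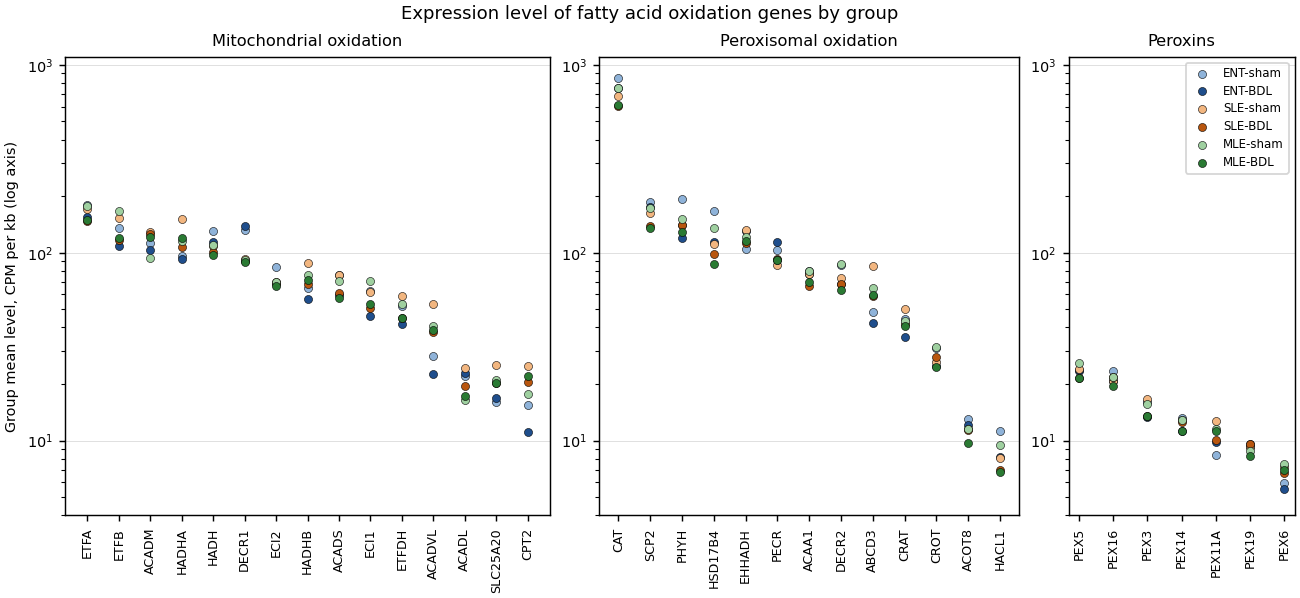
Mean level of the 35 tested genes in each of the 6 groups, as CPM per kb on a log axis, with genes ordered by their mean over all libraries within mitochondrial oxidation, peroxisomal oxidation, and peroxins. CAT stands above all others at 715 CPM per kb, and no peroxin exceeds 25.9 CPM per kb in any group.

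The genes lay on many chromosomes of the Sscrofa11.1 assembly. HADHA (chromosome 3, 112753343 to 112797627, plus strand) and HADHB (chromosome 3, 112712894 to 112753121, minus strand), the α and β subunits of the mitochondrial trifunctional protein, are divergent neighbors with 221 bases between them. CPT2 (159038129 to 159061327) and SCP2 (159191045 to 159314985), the sterol carrier protein with peroxisomal thiolase activity, lie on the same strand of chromosome 6. ACADVL, HADHB, ETFDH, ECI1, ECI2, ACAA1, HACL1, ACOT8, PEX3, PEX6, and PEX11A share part of their span with a gene on the opposite strand. The sources do not say whether the counting used strand, so reads in such a stretch may belong to either gene, and values of these genes are uncertain to that extent. Some of these neighbors passed too, in the same direction as the gene they overlap or in the other. DLG4 at ACADVL was higher in MLE-sham (0.52) and MLE-BDL (0.58) than in ENT pigs of the same surgery, as was ACADVL. BTD at HACL1 was lower in SLE-sham (−0.44), MLE-sham (−0.34), and MLE-BDL (−0.36) pigs than in ENT pigs. FUCA2 at PEX3 was lower in the same 3 comparisons (−0.34, −0.58, and −0.35). With all libraries and no block, neither HACL1 nor PEX3 passed there. GNMT at PEX6 was lower in SLE-sham (−1.23), where PEX6 was higher, and after BDL on ENT and MLE, where PEX6 did not pass. WDR93 at PEX11A was lower in both comparisons of MLE with ENT, while PEX11A was higher in MLE-sham. C8H4orf46 at ETFDH was higher after BDL on MLE, where ETFDH did not pass. Their part in the values of the 36 genes was not tested.

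After BDL a minority of the genes passed as lower on each diet, and none passed as higher. In the ENT comparison, 8 of 35 genes passed the test and all were lower in ENT-BDL than in ENT-sham, where 17.4% of all tested genes passed in either direction, 8.53% lower and 8.89% higher. On SLE, 7 genes passed and all were lower, against 4.54% of all tested genes in either direction, 1.57% lower and 2.97% higher. MLE pigs had 5 genes that passed, again all lower, and their share of 14.3% was close to the 14.4% of all tested genes that passed in either direction, with 6.58% lower and 7.85% higher. The median log2 fold change of the 35 genes was −0.19 on ENT, −0.21 on SLE, and −0.17 on MLE, beside medians of 0.01, 0.01, and 0.00 over all tested genes. Of the 35 genes, 20 passed on no diet, 10 on 1 diet, 5 on 2 diets (DECR2, ECI1, ETFDH, HSD17B4, and PEX3), and none on all 3. In bulk liver, fewer cells of a type and less RNA per cell cannot be told apart.

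**Figure D2:**
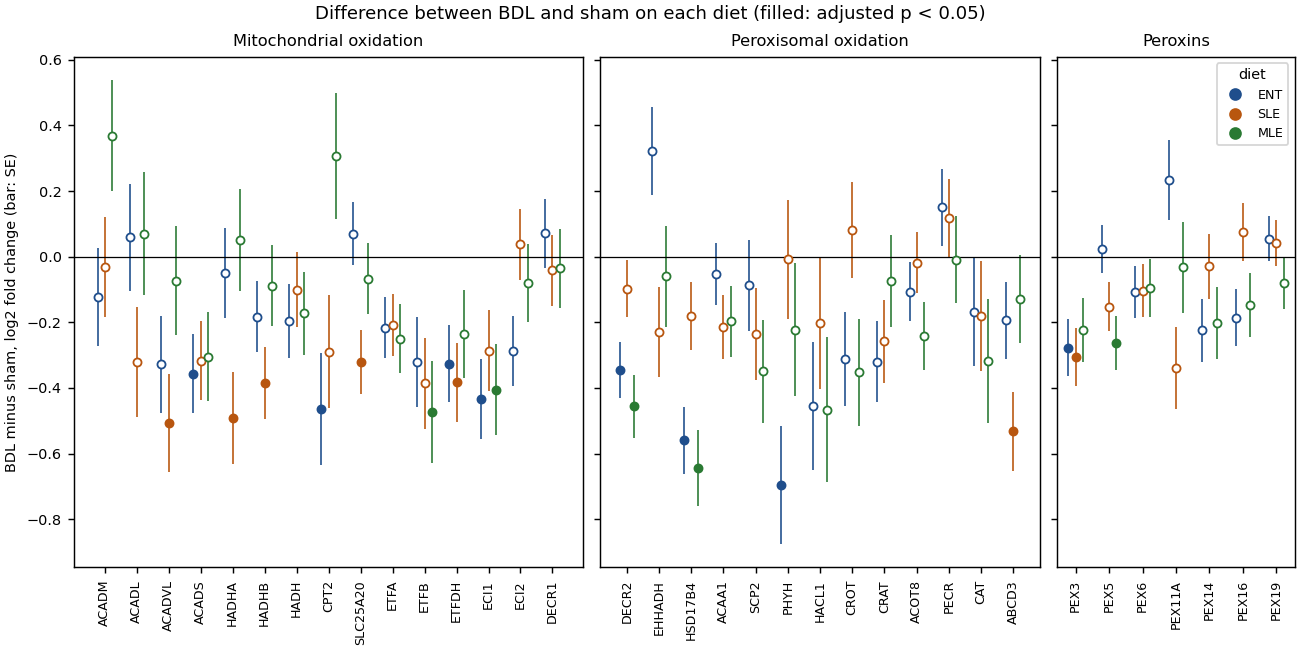
Log2 fold change of BDL over sham with its SE for each of the 35 tested genes on ENT, SLE, and MLE, where filled points passed the test. All filled points lie below 0, with 8 on ENT, 7 on SLE, and 5 on MLE.

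Among the peroxisomal oxidation genes, HSD17B4 (chromosome 2, 123313445 to 123401386), the D-bifunctional protein that carries out the middle steps of peroxisomal oxidation of branched chains and bile acid side chains, had the smallest adjusted p after BDL on ENT and on MLE. Its lowest, median, and highest levels were 283, 590, and 650 CPM in ENT-sham and 291, 376, and 538 CPM in ENT-BDL. The low ENT-sham value was replicate 2, and the next lowest ENT-sham pig had 528 CPM, so without the matching libraries 8 of the 9 ENT-BDL pigs lay below every ENT-sham pig. HSD17B4 was lower in ENT-BDL by a log2 fold change of −0.56 (SE 0.10, adjusted p = 6.44e-05), and by −0.59 without both libraries (adjusted p = 1.24e-06). On MLE, the lowest, median, and highest levels were 380, 479, and 513 CPM in sham pigs and 271, 290, and 335.7 CPM in BDL pigs. Every MLE-BDL pig was below every MLE-sham pig, with a log2 fold change of −0.64 (SE 0.12, adjusted p = 7.00e-05). The SLE groups overlapped, with 310, 392, and 426 CPM in SLE-sham and 220, 330, and 408 CPM in SLE-BDL, and HSD17B4 did not pass there.

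DECR2, the peroxisomal 2,4-dienoyl-CoA reductase that handles polyunsaturated chains, passed on the same diets as HSD17B4. ENT-sham pigs had 109, 135, and 153 CPM (lowest, median, highest) and ENT-BDL pigs 69.4, 106, and 129 CPM, with 6 of 10 ENT-BDL pigs below all ENT-sham pigs. The log2 fold change was −0.34 (SE 0.09, adjusted p = 0.0027), or −0.38 without the matching libraries. MLE-sham pigs had 113, 121, and 172 CPM and MLE-BDL pigs 89.6, 97.2, and 110 CPM, and these groups did not overlap. This difference was −0.46 (SE 0.10, adjusted p = 0.000562). HSD17B4 and DECR2 were the 2 of 35 genes whose MLE groups did not overlap, where 1.25% of all tested genes had MLE-BDL wholly below MLE-sham. Both kept their calls on ENT and on MLE in all 60 fits that left out 1 pig each, and with the number in the pig identifiers as a block.

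PHYH, the phytanoyl-CoA hydroxylase that starts α-oxidation of branched chains, passed on ENT alone. Its levels were 100, 292, and 362 CPM in ENT-sham and 99.3, 180, and 269 CPM in ENT-BDL. Both lowest values come from the matching libraries, without which 7 of 9 ENT-BDL pigs were below all ENT-sham pigs. The log2 fold change was −0.70 (SE 0.18, adjusted p = 0.00405), and −0.72 without them. On SLE the medians were 183 CPM in sham and 225 CPM in BDL pigs, and on MLE 224 and 176 CPM, neither of which passed.

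ABCD3, a peroxisomal membrane transporter of branched and dicarboxylic acyl-CoA, passed on SLE alone. SLE-sham pigs had 246, 313, and 383 CPM and SLE-BDL pigs 121, 205, and 319 CPM, with 9 of 11 SLE-BDL pigs below all SLE-sham pigs. The log2 fold change was −0.53 (SE 0.12, adjusted p = 0.00497), and it passed in all 60 fits without 1 pig and with the identifier block (−0.47, adjusted p = 0.0079). EHHADH, the L-bifunctional enzyme, was among the genes that did not pass on any diet after BDL, and its medians went from 440 to 558 CPM on ENT, from 574 to 490 CPM on SLE, and from 529 to 453 CPM on MLE. CAT did not pass either, and its levels ranged from 770 to 3184 CPM over the 60 libraries. The others that did not pass on any diet were ACAA1, SCP2, HACL1, CROT, CRAT, ACOT8, and PECR.

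Of the mitochondrial genes, ECI1, the isomerase that shifts double bonds, passed on ENT and MLE. ENT-sham pigs had 52.2, 88.3, and 105 CPM and ENT-BDL pigs 53.0, 64.3, and 74.9 CPM. Without the matching libraries the lowest ENT-sham pig had 77.2 CPM, above all 9 ENT-BDL pigs, while 0.876% of all tested genes were then wholly lower in ENT-BDL. The log2 fold change was −0.43 (SE 0.12, adjusted p = 0.0086) with all pigs and −0.47 (adjusted p = 0.00353) without these 2. On MLE the levels were 70.0, 90.4, and 137 CPM in sham and 53.4, 65.8, and 115 CPM in BDL pigs. Here 5 of 8 MLE-BDL pigs were below all MLE-sham pigs (log2 fold change −0.41, SE 0.14, adjusted p = 0.0369), and the adjusted p ranged from 0.00557 to 0.0965 when single pigs were left out, with the call lost in 8 of 60 fits.

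Electron transfer genes also passed in part. ETFDH, which passes electrons to ubiquinone, had 81.3, 134, and 153 CPM in ENT-sham and 81.3, 106, and 126 CPM in ENT-BDL (log2 fold change −0.33, SE 0.12, adjusted p = 0.046). On SLE it had 117, 150, and 189 CPM in sham and 64.4, 115, and 155 CPM in BDL pigs (−0.38, SE 0.12, adjusted p = 0.0495). Both results lie close to the threshold, and were lost in 21 and 35 of the 60 fits without 1 pig. ETFB, a subunit of the electron transfer flavoprotein, passed on MLE, where sham pigs had 146, 176, and 231 CPM and BDL pigs 102, 114, and 186 CPM. Of the 8 MLE-BDL pigs, 6 lay below all MLE-sham pigs, and the log2 fold change was −0.47 (SE 0.16, adjusted p = 0.0295, lost in 6 of 60 fits).

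On SLE 5 mitochondrial genes passed, which were HADHA, HADHB, ACADVL, SLC25A20, and ETFDH, while CPT2 and ACADL, which also act on long chains, did not. HADHA, which hydrates and dehydrogenates long chains, had 302, 423, and 478 CPM in SLE-sham and 180, 252, and 469 CPM in SLE-BDL, a difference of −0.49 (SE 0.14, adjusted p = 0.0297). HADHB, the thiolase of the same complex, had 166, 215, and 252 CPM in sham and 111, 142, and 226 CPM in BDL pigs (−0.39, SE 0.11, adjusted p = 0.0312). ACADVL, the very long chain acyl-CoA dehydrogenase, had 179, 239, and 394 CPM in sham and 94.8, 175, and 326 CPM in BDL pigs (−0.51, SE 0.15, adjusted p = 0.0361). In each of the 3, 7 or 8 of 11 SLE-BDL pigs were below all SLE-sham pigs, while the highest SLE-BDL pigs reached the sham range. SLC25A20 had medians of 45.9 CPM in sham and 35.4 CPM in BDL pigs (−0.32, SE 0.10, adjusted p = 0.0433). These calls lay close to the threshold, and 1 gene of the 7, ABCD3, passed without SLE-BDL replicate 2 (3.27% of all tested genes) or without replicate 7 (4.22%). The other 6 had adjusted p of 0.0659 to 0.112 and 0.0508 to 0.0694 in these fits, with log2 fold changes of −0.44 to −0.27 and −0.47 to −0.29, so that they stayed negative and moved by at most 0.07. With both SLE groups fitted alone 2 genes passed, beside 2.83% of all tested genes, and with the identifier block 3 (ACADVL, ABCD3, and PEX3), beside 4.15%. One and the same identifier number was carried by 5 of 11 SLE-BDL pigs and 0 SLE-sham pigs. Surgery on SLE is therefore partly mixed with that number.

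The other mitochondrial genes that passed were lower on ENT. ACADS, the short chain dehydrogenase, had 105, 153, and 209 CPM in ENT-sham and 94.4, 124, and 154 CPM in ENT-BDL (log2 fold change −0.36, SE 0.12, adjusted p = 0.0296). CPT2 had 28.8, 46.4, and 62.3 CPM in ENT-sham and 18.4, 30.8, and 53.1 CPM in ENT-BDL (−0.46, SE 0.17, adjusted p = 0.0492). The CPT2 call was lost in 42 of 60 fits without 1 pig. ACADM, ACADL, HADH, ETFA, ECI2, and DECR1 did not pass on any diet. On ENT, 4 genes passed without ENT-BDL replicate 2 (15.2% of all tested genes), 15 without ENT-sham replicate 2 (22.5%), 11 without both matching libraries (21% of all tested genes), and 14 with the identifier block (20.8% of all tested genes), and the 11 and the 14 were all lower. Without both libraries all 8 genes kept their calls, with log2 fold changes that moved by at most 0.0369, and ECI2, ETFA, and CRAT were added. On MLE, 2 genes (HSD17B4 and DECR2) passed without MLE-BDL replicate 3 (11.6% of all tested genes) or without replicate 7 (12.2%).

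**Figure D3:**
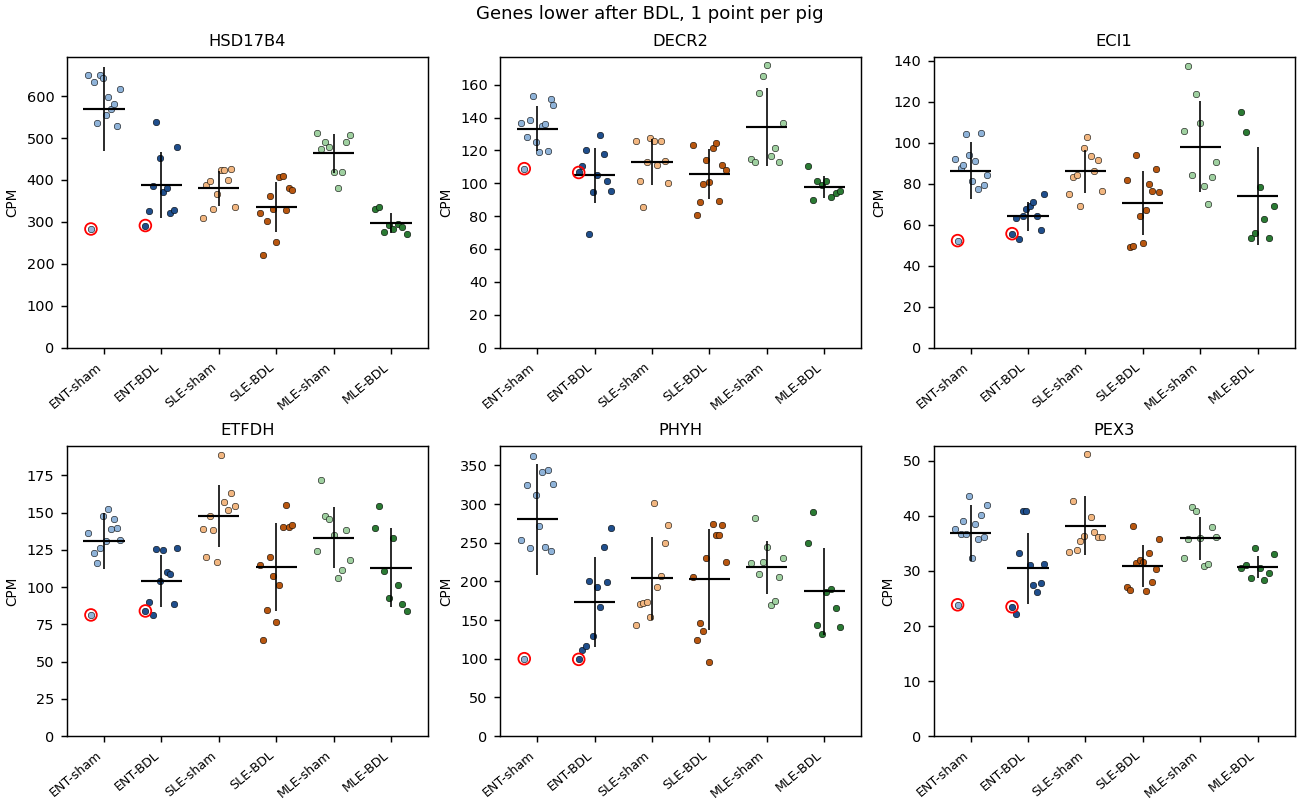
CPM of HSD17B4, DECR2, ECI1, ETFDH, PHYH, and PEX3 in each of the 60 libraries by group, with the group mean and SD. Red circles mark ENT-sham replicate 2 and ENT-BDL replicate 1. HSD17B4 and DECR2 show MLE-BDL pigs wholly below MLE-sham pigs.

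Of the 7 peroxins, 1 passed on each diet. PEX3, a membrane protein at which peroxisomes begin to form, had 23.9, 37.2, and 43.7 CPM in ENT-sham and 22.1, 29.5, and 41.0 CPM in ENT-BDL (log2 fold change −0.28, SE 0.09, adjusted p = 0.0195). It was lost without ENT-BDL replicate 2 (adjusted p = 0.0562). On SLE it had 33.5, 36.3, and 51.3 CPM in sham and 26.4, 31.4, and 38.1 CPM in BDL pigs, with 9 of 11 SLE-BDL pigs below all SLE-sham pigs (−0.31, SE 0.09, adjusted p = 0.0327). PEX3 shares 12708 bases of its span with FUCA2 on the opposite strand. PEX5 passed on MLE, from a median of 85.4 CPM in sham to 74.6 CPM in BDL pigs (−0.26, SE 0.08, adjusted p = 0.0223), and the adjusted p ranged from 0.00637 to 0.0741 when single pigs were left out. It was lost without MLE-sham replicate 7 and without MLE-BDL replicates 3 and 7. PEX6, PEX11A, PEX14, PEX16, and PEX19 did not pass on any diet.

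Cell type markers passed in part after BDL on all 3 diets. Of 9 tested hepatocyte markers, 4 were lower on ENT, 7 on MLE, and none passed on SLE, and their summed level went from 74669 to 168572 CPM (median 146829) in ENT-sham to 74804 to 132783 CPM (median 97699) in ENT-BDL. In MLE pigs the sums were 128372 to 187165 CPM in sham and 82013 to 95527 CPM in BDL, and in SLE pigs 102362 to 160832 CPM and 81006 to 125894 CPM. Of 9 tested cholangiocyte markers, 5 were higher on ENT, 6 on MLE, and none passed on SLE, and MUC1 had libraries without a count. Their sums were 73.1 to 361 CPM in ENT-sham and 221 to 392 CPM in ENT-BDL, 219 to 378 CPM and 259 to 437 CPM on SLE, and 172 to 241 CPM and 243 to 448 CPM on MLE. All ENT sums given here include both matching libraries. On SLE the median log2 fold change of the cholangiocyte markers was 0.66, beside 0.72 on ENT, and 3 of the 9 were higher when both matching ENT libraries were left out of the fit. Of 10 stellate and myofibroblast markers, 2 were higher on ENT, 1 on SLE, and 4 on MLE, and 1 was lower on ENT and on MLE. Of 10 macrophage markers, 1 was higher on each diet, and 2 were lower on ENT (5 without both matching libraries) and 3 on MLE. Endothelial markers counted 2 lower of 10 on ENT and 1 on MLE, erythroid markers 2 lower of 10 on MLE, and lymphocyte and neutrophil markers 1 lower of 9 on SLE and on MLE. Those that passed on SLE were ACTA2 of myofibroblasts (0.61, adjusted p = 0.0464), MARCO of macrophages (1.01, adjusted p = 0.0102), and CD4 of lymphocytes (−0.61, adjusted p = 0.0160). The part of these markers in the falls of the oxidation genes was not tested.

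Diet was compared next, first in sham pigs, whose bile ducts were open. SLE-sham pigs differed from ENT-sham pigs in 14 of 35 genes, with 9 higher and 5 lower, where 27.5% of all tested genes passed (13.9% higher and 13.6% lower). Without both matching libraries 16 genes passed, beside 29.3% of all tested genes. Of the 14 genes, 13 kept their calls with shifts of at most 0.086, EHHADH was lost, and HADH, HACL1, and PECR were added as lower. The comparisons of SLE and of MLE with ENT share the ENT pigs, so their agreement is not independent.

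Of the 9 genes that were higher in SLE-sham pigs, 5 were mitochondrial, 2 peroxisomal, and 2 peroxins. ACADVL had 82.2, 134, and 168 CPM in ENT-sham and 179, 239, and 394 CPM in SLE-sham, and the groups did not overlap. It was higher by a log2 fold change of 0.92 (SE 0.15, adjusted p = 1.62e-06), or 1.89-fold. SLC25A20 had 21.7, 28.5, and 33.7 CPM in ENT-sham and 35.5, 45.9, and 53.3 CPM in SLE-sham, again with no overlap (0.66, SE 0.10, adjusted p = 1.99e-07). CPT2 went from a median of 46.4 to 69.5 CPM, with 7 of 10 SLE-sham pigs above all ENT-sham pigs (0.70, SE 0.17, adjusted p = 0.00104). HADHA went from a median of 263 to 423 CPM, with 9 of 10 pigs above all ENT-sham pigs (0.65, SE 0.14, adjusted p = 0.000183), and its partner HADHB passed as well, with a log2 fold change of 0.45. With the identifier block, CPT2 (0.32, adjusted p = 0.0618) and HADHB (0.24, adjusted p = 0.0635) no longer passed, while ACADVL (0.68), SLC25A20 (0.52), and HADHA (0.42) did. In all, 15 genes passed with this block, beside 27.1% of all tested genes, as CPT2, HADHB, and EHHADH were lost and HADH, HACL1, CAT, and CROT were added as lower. The other acyl-CoA dehydrogenases, ACADM for medium, ACADL for long, and ACADS for short chains, had medians of 204, 36.9, and 153 CPM in ENT-sham and 212, 37.4, and 154 CPM in SLE-sham, and did not pass.

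DECR1, the mitochondrial 2,4-dienoyl-CoA reductase, was lower on PN in both sham groups. It had 242, 302, and 407 CPM in ENT-sham, 180, 203, and 284 CPM in SLE-sham, and 206, 212, and 230 CPM in MLE-sham. All 9 MLE-sham pigs were below every ENT-sham pig, and 6 of 10 SLE-sham pigs were. The log2 fold changes were −0.51 (SE 0.11, adjusted p = 0.000184) on SLE and −0.52 (SE 0.11, adjusted p = 0.000313) on MLE, and both passed in all 60 fits without 1 pig and with the identifier block. ECI2, another isomerase, was lower in SLE-sham by −0.30 (SE 0.11, adjusted p = 0.030), with medians of 157 CPM in ENT-sham and 128 CPM in SLE-sham. That call was lost without ENT-sham replicate 10 and without SLE-sham replicates 4 and 6, with adjusted p of up to 0.0724.

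Peroxisomal genes differed in both directions. ABCD3 had 96.3, 175, and 207 CPM in ENT-sham and 246, 313, and 383 CPM in SLE-sham with no overlap, a log2 fold change of 0.81 (SE 0.12, adjusted p = 1.94e-07). ABCD3, ACADVL, and SLC25A20 were the 3 of 35 genes wholly higher in SLE-sham, against 0.765% of all tested genes. HSD17B4, at a median of 590 CPM in ENT-sham and 392 CPM in SLE-sham, was lower by −0.59 (SE 0.10, adjusted p = 9.54e-06). All 10 SLE-sham pigs were below every ENT-sham pig once the matching libraries were left out, as were 1.77% of all tested genes. DECR2 was lower by −0.24 (SE 0.08, adjusted p = 0.0291) and PHYH by −0.46 (SE 0.18, adjusted p = 0.0478). PHYH was lost in 21 of 60 fits without 1 pig, and DECR2 without ENT-sham replicate 5 and SLE-sham replicates 3 and 10. EHHADH was the other gene that was higher, with a log2 fold change of 0.34 (adjusted p = 0.049), a call that was lost without the matching libraries (adjusted p = 0.0696) and with the identifier block (adjusted p = 0.586).

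Of the peroxins, PEX11A and PEX6 passed. PEX11A, which elongates peroxisomes before they divide, had 14.7, 23.6, and 28.6 CPM in ENT-sham and 20.1, 35.98, and 51.9 CPM in SLE-sham, with 7 of 10 pigs above all ENT-sham pigs (log2 fold change 0.61, SE 0.12, adjusted p = 8.78e-05). PEX6 had 19.4, 25.2, and 29.1 CPM in ENT-sham and 24.4, 28.9, and 36.4 CPM in SLE-sham (0.28, SE 0.08, adjusted p = 0.00492). PEX6 shares 1367 bases with GNMT on the opposite strand, which was lower in the same comparison. PEX3, PEX5, PEX14, PEX16, and PEX19 did not pass in SLE-sham against ENT-sham.

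**Figure D4:**
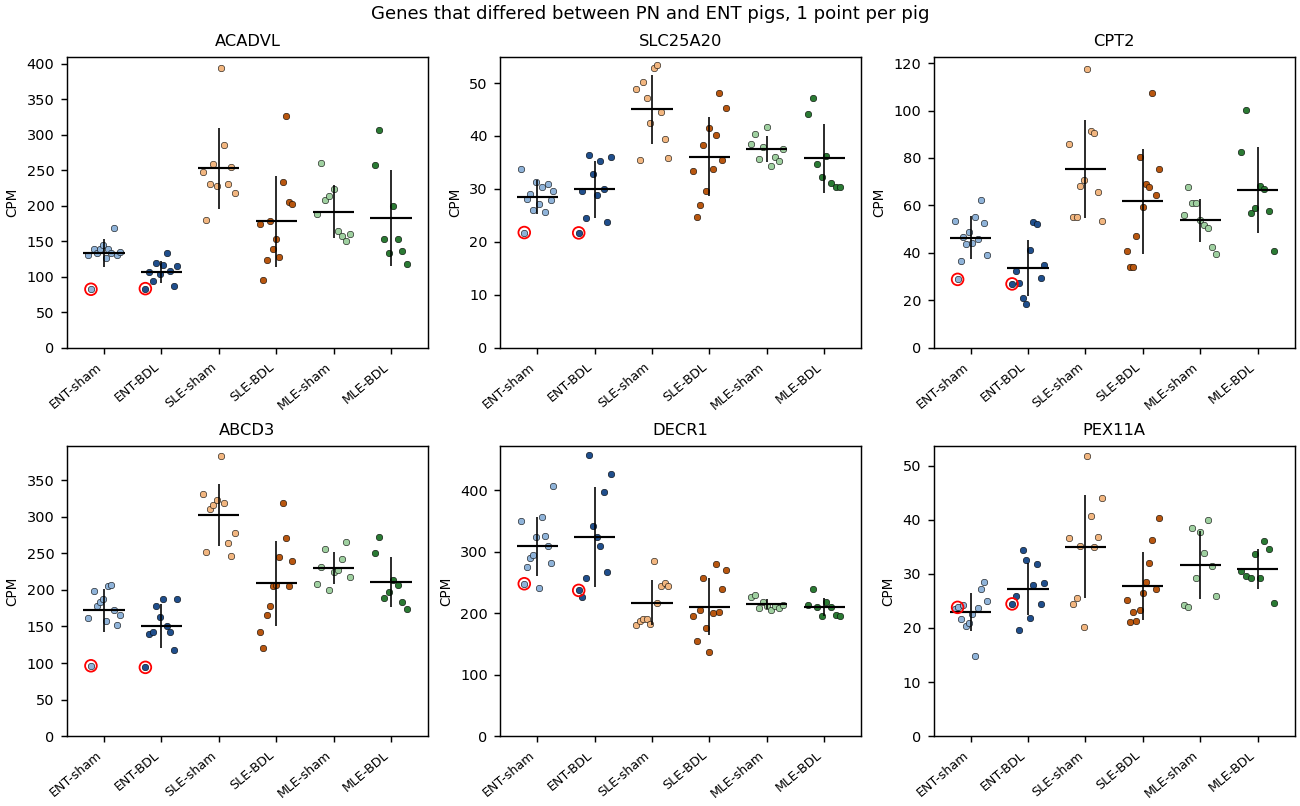
CPM of ACADVL, SLC25A20, CPT2, ABCD3, DECR1, and PEX11A in each of the 60 libraries by group, with the group mean and SD. Red circles mark ENT-sham replicate 2 and ENT-BDL replicate 1. ACADVL, SLC25A20, and ABCD3 show SLE-sham pigs wholly above ENT-sham pigs, and DECR1 shows MLE-sham pigs wholly below them.

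MLE-sham pigs differed from ENT-sham pigs in 7 genes, with 5 higher and 2 lower, where 21.1% of all tested genes passed (10.7% higher and 10.4% lower). Without both matching libraries 10 genes passed, beside 22.9% of all tested genes, as the 7 kept their calls with shifts of at most 0.0712 and ECI2, HADH, and PHYH were added as lower. SLC25A20 had 34.4, 37.5, and 41.7 CPM in MLE-sham, wholly above ENT-sham (log2 fold change 0.40, SE 0.10, adjusted p = 0.00198). Both it and DECR1 were without overlap, where 1.34% of all tested genes were. ACADVL, at 150, 189, and 260 CPM in MLE-sham, was higher by 0.52 (SE 0.15, adjusted p = 0.0082), and ABCD3, at 199, 228, and 265 CPM, by 0.42 (SE 0.12, adjusted p = 0.00772). HSD17B4, at 380, 479, and 513 CPM, was lower by −0.30 (SE 0.10, adjusted p = 0.0324). It was wholly below ENT-sham without the matching libraries, when 1.01% of all tested genes were. PEX6 was higher by 0.33 (SE 0.08, adjusted p = 0.00196) and PEX11A by 0.46 (SE 0.12, adjusted p = 0.00505). MLE pigs carry only 4 of the 8 numbers found in the pig identifiers, and with that number as a block SLC25A20 (0.23, adjusted p = 0.152), ACADVL (0.16, adjusted p = 0.481), ABCD3 (0.31, adjusted p = 0.0953), and PEX11A (0.11, adjusted p = 0.664) no longer passed, while DECR1 (−0.76), HSD17B4 (−0.37), and PEX6 (0.37) did. ACADL, HADH, ACADM, PHYH, and CRAT were added as lower with this block, so that 8 genes passed, beside 17.9% of all tested genes.

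In BDL pigs, SLE differed from ENT in 6 genes, with 5 higher and 1 lower, where 19.6% of all tested genes passed (10.4% higher and 9.17% lower). CPT2 was higher in SLE-BDL, with 18.4, 30.8, and 53.1 CPM in ENT-BDL and 34.0, 64.2, and 107 CPM in SLE-BDL. It had the largest log2 fold change of these 6 at 0.87 (SE 0.17, adjusted p = 0.000184), with 7 of 11 SLE-BDL pigs above all ENT-BDL pigs. ACADVL had 83.0, 107, and 133 CPM in ENT-BDL and 94.8, 175, and 326 CPM in SLE-BDL (0.74, SE 0.15, adjusted p = 0.000234). ABCD3 was higher by 0.48 (SE 0.12, adjusted p = 0.0030) and PEX6 by 0.29 (SE 0.08, adjusted p = 0.00817). SLC25A20 was higher by 0.27 (adjusted p = 0.0404), which was lost without the matching libraries (adjusted p = 0.0852). DECR1 had 226, 316, and 456 CPM in ENT-BDL and 137, 202, and 279 CPM in SLE-BDL, lower by −0.62 (SE 0.11, adjusted p = 2.23e-05). Without the matching libraries 9 genes passed (19.2% of all tested genes), and with the identifier block 11 genes (22.4%), as SLC25A20 was lost and HADH, PECR, SCP2, ACAA1, HSD17B4, and CAT were added as lower. Without those libraries 5 of the 6 genes kept their calls with shifts of at most 0.0582, and PECR, SCP2, ACAA1, and HSD17B4 were added as lower. Of the cell type markers, 3 of 9 lymphocyte and neutrophil markers and 1 of 10 stellate markers were lower, 1 of 9 cholangiocyte markers was higher, and 1 hepatocyte and 1 erythroid marker passed in each direction, and their part in these results was not tested.

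MLE-BDL pigs differed from ENT-BDL pigs in 9 genes, with 5 higher and 4 lower, where 16.8% of all tested genes passed (8.53% higher and 8.27% lower). Without both matching libraries 10 genes passed, beside 17.1% of all tested genes, as 8 of the 9 kept their calls with shifts of at most 0.0619, HADHB was lost, and PECR and SCP2 were added as lower. CPT2 had 40.7, 62.8, and 100 CPM in MLE-BDL, and 7 of 8 pigs were above all ENT-BDL pigs (log2 fold change 0.98, SE 0.19, adjusted p = 0.000105, 1.97-fold). ACADVL, at 117, 153, and 307 CPM, was higher by 0.78 (SE 0.16, adjusted p = 0.000369), and DECR1, at 196, 209, and 239 CPM, lower by −0.63 (SE 0.12, adjusted p = 9.81e-05). HADHB was higher by 0.33 (adjusted p = 0.048), a call lost in 51 of 60 fits without 1 pig. ABCD3 was higher by 0.49 (SE 0.13, adjusted p = 0.0054), HSD17B4 lower by −0.39 (SE 0.11, adjusted p = 0.0123), and ACOT8, a peroxisomal acyl-CoA thioesterase, lower by −0.32 (SE 0.10, adjusted p = 0.0217). The ACOT8 call was lost without MLE-BDL replicate 3 (adjusted p = 0.0532). PEX6 was higher by 0.34 (SE 0.09, adjusted p = 0.00375), and PEX19, a chaperone of peroxisomal membrane proteins, was lower by −0.22 (SE 0.08, adjusted p = 0.0389), which was lost in 8 of 60 fits. With the identifier block ABCD3 (0.37, adjusted p = 0.0627), ACOT8 (−0.33, adjusted p = 0.0547), and HADHB (0.03) did not pass, while ACADL, HADH, and EHHADH were added as lower, so that 9 genes passed, beside 13.2% of all tested genes. In this comparison 1 of 9 hepatocyte markers and 2 of 10 endothelial markers were lower, and 2 of 9 cholangiocyte markers were higher. Of 10 erythroid markers, 5 were lower (8 without both matching libraries) and 1 was higher, with sums of 378 to 3950 CPM in ENT-BDL and 260 to 611 CPM in MLE-BDL, and the part of these markers in these results was not tested.

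**Figure D5:**
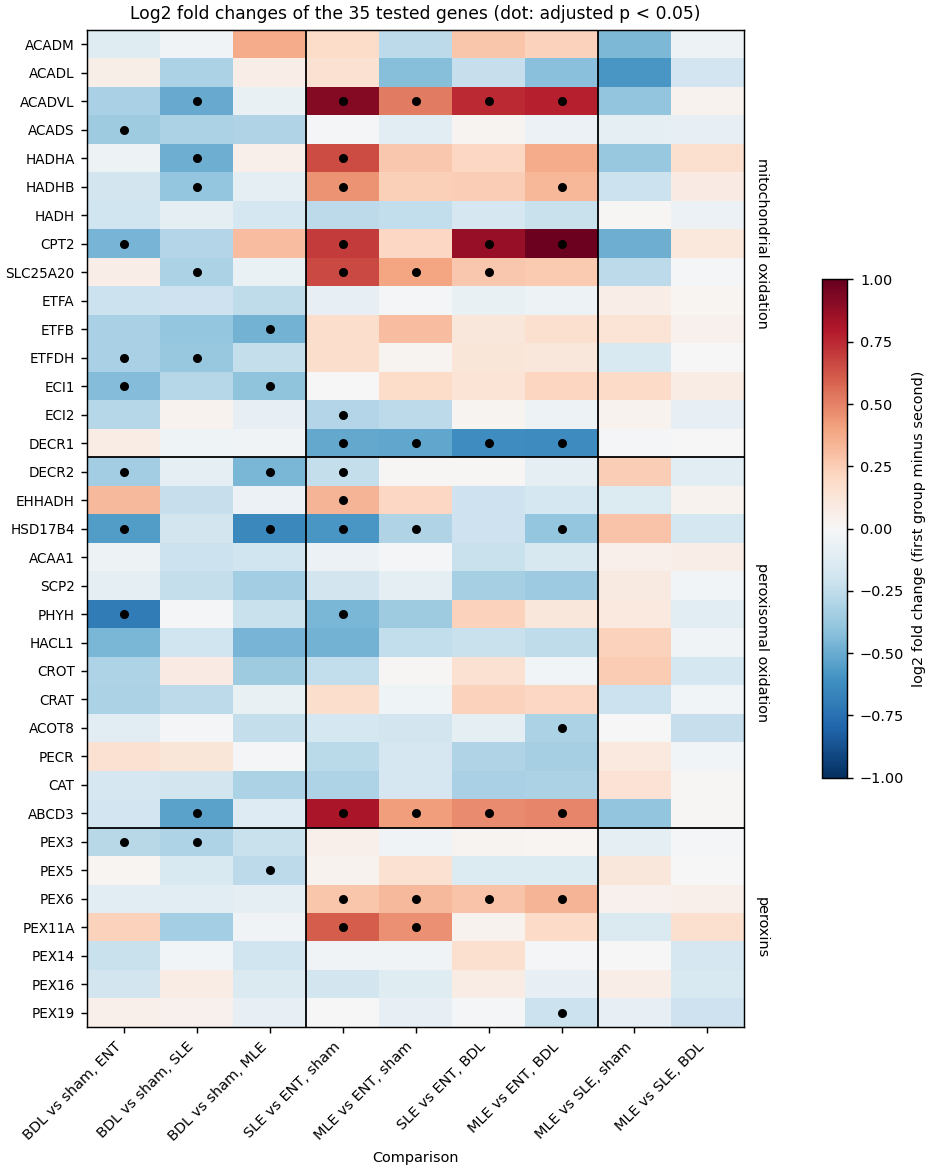
Log2 fold change (color, first group minus second) of the 35 tested genes in 9 comparisons, with a dot where the gene passed the test. The 3 left columns hold only negative dots, DECR1 is negative and ACADVL, ABCD3, and PEX6 are positive with a dot in all 4 comparisons of PN with ENT, and the 2 columns of MLE against SLE hold no dots.

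The lipid emulsions were compared directly. No gene passed between MLE-sham and SLE-sham in edgeR or in DESeq2, where 0.999% of all tested genes passed in edgeR and 1.54% in DESeq2. At an unadjusted p under 0.05 there were 9 of the 35 genes (25.7%) and 11.3% of all tested genes. The gene nearest to the threshold was ACADL, the long chain acyl-CoA dehydrogenase, with 29.0, 37.4, and 75.6 CPM in SLE-sham and 17.3, 29.4, and 33.7 CPM in MLE-sham (log2 fold change −0.58, SE 0.18, adjusted p = 0.0995). With the identifier block 5 genes passed (1.09% of all tested genes), all of them mitochondrial and lower on MLE, among them ACADL (adjusted p = 0.0258), and 2 passed with these groups fitted alone (1.57% of all tested genes). Among peroxisomal genes ABCD3 was nearest, at −0.39 (SE 0.13, adjusted p = 0.128), and among peroxins PEX5, at 0.11 (SE 0.08, adjusted p = 0.647). Between MLE-BDL and SLE-BDL no gene passed in either tool, with calls for 0.907% of all tested genes in edgeR and 2.08% in DESeq2, and at an unadjusted p under 0.05 there were 2 of 35 genes (5.71%), beside 13% of all tested genes. All 35 log2 fold changes there lay between −0.23 and 0.16, with SE of up to 0.21. PEX19 (−0.20, SE 0.07, adjusted p = 0.180), ACOT8 (−0.23, SE 0.10, adjusted p = 0.288), and HADHA (0.16, SE 0.15, adjusted p = 0.692) were nearest in their groups of genes. The 95% intervals of the 35 genes, as the log2 fold change and its SE with 54 residual degrees of freedom, reached from −0.55 to 0.47 in BDL pigs and from −0.93 to 0.65 in sham pigs. The missed threshold does not show that the emulsions acted alike.

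Whether BDL acted differently by diet was tested as an interaction. No gene passed in any of the 3 interactions in edgeR, where 2.33%, 0.0617%, and 0.265% of all tested genes passed for SLE against ENT, MLE against ENT, and MLE against SLE. At an unadjusted p under 0.05 there were 10, 3, and 5 of 35 genes, beside 14.8%, 9.04%, and 9.76% of all tested genes, and DESeq2 called 1, 0, and 0, with 3.32%, 0.238%, and 0.722% of all tested genes. The 1 gene was PEX11A, whose log2 fold change after BDL was 0.23 on ENT and −0.34 on SLE, a difference of −0.57 (SE 0.17, adjusted p = 0.0604 in edgeR and 0.0447 in DESeq2). Its median went from 23.6 to 26.9 CPM between ENT-sham and ENT-BDL and went from 35.98 to 26.5 CPM between SLE-sham and SLE-BDL. Without both matching libraries its adjusted p was 0.0437, and HSD17B4 passed too, with a log2 difference of 0.41 (adjusted p = 0.0445), while 4.49% of all tested genes passed. Nearest among the peroxisomal and mitochondrial genes were EHHADH (−0.55, SE 0.19, adjusted p = 0.118) and SLC25A20 (−0.39, SE 0.14, adjusted p = 0.120). For MLE against ENT, CPT2 was nearest with 0.77 (SE 0.26, adjusted p = 0.286), and passed with the identifier block (0.86, adjusted p = 0.0107), followed by PEX5 (−0.29, adjusted p = 0.398) and EHHADH (−0.38, adjusted p = 0.602). For MLE against SLE, HSD17B4 was nearest with −0.46 (SE 0.15, adjusted p = 0.233), followed by HADHA (0.54, adjusted p = 0.349) and PEX16 (−0.22, adjusted p = 0.613). With all 60 libraries and no block, the falls that passed on 1 diet and not on another are thus not shown to differ between diets in edgeR.

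Other genes of the same pathways were counted from lists that do not overlap with the 36. After BDL on ENT, 8.53% of all tested genes were lower and 8.89% higher. These shares were 1.57% and 2.97% on SLE, and 6.58% and 7.85% on MLE. Of 17 other mitochondrial oxidation genes, 3 were lower and 1 higher after BDL on ENT, 2 lower on SLE, and 3 lower and 2 higher on MLE. ACSL1, which activates long chain fatty acids, was lower after BDL on SLE (log2 fold change −0.46, adjusted p = 0.0241) and on MLE (−0.51, adjusted p = 0.0105). MLYCD, which removes the malonyl-CoA that holds back the uptake of long chain fatty acids as carnitine esters, was lower on SLE (−0.65, adjusted p = 0.00508). Of 21 other peroxisomal enzymes and transporters, 4 were lower and 2 higher on ENT, 4 lower on SLE, and 5 lower on MLE. ACOX2, the oxidase that acts on branched chains and bile acid precursors, was lower on MLE by −0.64 (adjusted p = 2.89e-05), with 274, 301, and 436 CPM in sham and 188, 209, and 233 CPM in BDL pigs. Of 9 other peroxins, 2 were lower on ENT and 1 on MLE. Of 17 genes of the respiratory chain and the citrate cycle found in the table, 3 were lower on ENT, none passed on SLE, and 3 were higher on MLE, among them CYCS, cytochrome c (0.58, adjusted p = 0.0105). Of 10 regulators of fatty acid oxidation, 3 were lower on ENT and none passed on SLE or MLE in edgeR. Of 5 ketone body enzymes, 1 was lower on ENT and 1 on MLE. Without both matching libraries, 5 other peroxisomal genes, 3 other peroxins, and 4 regulators were lower on ENT, and 1 regulator was lower on MLE.

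The same lists were counted between PN and ENT in sham pigs. Of all tested genes, 13.9% were higher and 13.6% lower in SLE-sham, and 10.7% and 10.4% in MLE-sham. In SLE-sham against ENT-sham, 6 of 17 other mitochondrial genes were higher and 2 lower, led by ACSL1, with 590, 1011, and 1279 CPM in ENT-sham and 1549, 1908, and 3114 CPM in SLE-sham (log2 fold change 1.03, adjusted p = 3.09e-09). The same comparison gave 0.99 for MLYCD and 1.13 for CPT1B, an outer membrane carnitine transferase. Of 21 other peroxisomal genes, 4 were higher and 2 lower, led by TYSND1, the protease that trims imported peroxisomal enzymes (1.07, adjusted p = 7.5e-11), and HAO2, a peroxisomal hydroxyacid oxidase (−0.77). Among 10 regulators of fatty acid oxidation, 1 was higher and 3 were lower in SLE-sham. The higher one was PPARA, the receptor that turns on both pathways, with medians of 47.1 CPM in ENT-sham, 57.2 CPM in SLE-sham, and 65.1 CPM in MLE-sham (0.34, adjusted p = 0.0247 on SLE, and 0.45, adjusted p = 0.00451 on MLE). The 3 lower ones were PPARGC1A, a coactivator of PPARA (−0.44, adjusted p = 0.0317), RXRA, its partner receptor (−0.29, adjusted p = 0.0312), and NR1H4, the bile acid receptor (−0.19, adjusted p = 0.0219). Ketone body enzymes counted 1 higher and 2 lower of 5 in SLE-sham and 3 lower in MLE-sham, and of 9 other peroxins 1 was lower in SLE-sham. In MLE-sham, 1 regulator besides PPARA passed, and this was PPARGC1A, which was lower (−0.57, adjusted p = 0.00839). Other mitochondrial genes counted 2 higher in MLE-sham, and other peroxisomal genes 2 higher and 3 lower. Respiratory chain and citrate cycle genes counted 3 higher and 1 lower in SLE-sham, and 1 higher and 1 lower in MLE-sham. Without both matching libraries, 2 regulators were lower in SLE-sham and 3 in MLE-sham, 2 other peroxins were lower in each, and in SLE-sham the other mitochondrial genes counted 5 higher and 4 lower and the other peroxisomal genes 4 higher and 3 lower. Respiratory chain and citrate cycle genes then counted 2 higher and 2 lower in SLE-sham. In MLE-sham the other mitochondrial genes counted 2 higher and 2 lower, and the other peroxisomal genes 2 higher and 4 lower.

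Cell type markers also differed by diet. In SLE-sham against ENT-sham, 3 of 9 hepatocyte markers were lower and 3 of 9 cholangiocyte markers were higher, namely SPP1 (2.51), KRT19 (1.27), and CLDN4 (0.74) on the log2 scale. In the same comparison 3 of 10 endothelial markers and 1 of 10 stellate markers were lower, 2 of 10 macrophage markers were higher and 2 lower, and 1 of 10 erythroid markers was higher and 2 were lower. In MLE-sham, 1 of 9 hepatocyte markers was higher and 1 lower, 2 of 9 cholangiocyte markers were higher, 1 of 10 endothelial and 1 of 10 macrophage markers were lower, and 1 of 10 erythroid markers was higher and 2 were lower. Leaving out both matching libraries, 5 macrophage markers were lower and 2 stellate markers higher in SLE-sham, and in MLE-sham 2 hepatocyte markers were lower, 3 cholangiocyte markers were higher, and 1 stellate marker was higher and 1 lower. The part of these markers in the diet results was not tested.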

How the data were processed

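Liver mRNA of 60 libraries, each counted as 1 pig, was sequenced as paired reads after poly(A) selection. Per the study's methods, the authors trimmed reads with fastp, aligned them to Sscrofa11.1 with HISAT2 2.0.5, and deposited raw counts per gene from featureCounts 1.5.0-p3; whether strand was used is not given in the sources used here. Groups came from the sample labels. The 24 features without a gene name (0.00842 to 0.0407% of counts per library) were left out. From the deposited counts, a quasi-likelihood model was fitted in edgeR 4.0.16 (R 4.3.3, limma 3.58.1) to all 60 libraries with TMM scaling, after edgeR's filter on low counts kept 16210 genes. Two-sided p-values were adjusted by the Benjamini-Hochberg method over these genes, with a threshold of 0.05. Tests were tried on simulated data, where edgeR recovered 100 of 100 genes changed 3-fold and 21 of 100 changed 1.5-fold between ENT-BDL and ENT-sham, with 2 false calls. The simulation gave every gene the same fixed dispersion, not estimated from the libraries, so this recovery need not hold for the genes described here. DESeq2 1.42.0, another normalization, other filters, fits of the compared groups alone, blocks, and leaving out libraries were alternatives. Gene members and lists were chosen with earlier results of these data known. In each comparison, values are printed for up to 4 called genes of each set with the smallest adjusted p, or the nearest gene where none was called, for ABCD2, for the highest and lowest gene per length, and for up to 3 called genes of each other list. Further genes are given for their role or as counts, chosen after their values were seen. The median depth was 17254606 counted reads per library, and the spread between pigs was not set apart from counting error. Values of some genes of the other lists are not reported here.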

Additional observations from a re-analysis of the deposited data

Results flagged for a closer look

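Single libraries stood apart from the rest of their group, by Dixon's test at the 95% level, in 6 of 140 groups of 8 to 10 pigs tested for the 35 genes, where chance gives about 1 in 20, or 7. ENT-BDL replicate 4 was low for DECR2 (69.4 CPM, others 94.6 to 129) and for PEX6 (16.2 CPM, others 20.6 to 27.2). MLE-sham replicate 2 was high for ECI2 (190 CPM, others 104 to 135) and for PEX19 (125 CPM, others 82.2 to 98.9). ETFB was low in SLE-sham replicate 2 (121 CPM, others 148 to 185), and SCP2 was low in MLE-sham replicate 7 (203 CPM, others 268 to 304). ENT-sham and SLE-BDL hold more than 10 pigs and were not tested this way.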

How the results depend on the processing

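No result reversed its direction while called. With the number in the pig identifiers as a block, whose meaning is not given in the sources used here, 14 genes passed after BDL on ENT, 3 after BDL on SLE, 5 between MLE-sham and SLE-sham, 11 between SLE-BDL and ENT-BDL, 1 in the SLE against ENT interaction (PHYH), and 1 in the MLE against ENT interaction (CPT2). With only the groups compared in the fit, 2 genes passed after BDL on SLE and 2 between MLE-sham and SLE-sham (2.83% and 1.57% of all tested genes). Without a filter on low counts, 4 passed after BDL on SLE (2.29% of all tested genes). In the SLE against ENT interaction, 1 gene passed with DESeq2, 1 with at least 10 counts in every library, and 2 without both matching ENT libraries. Shares of all tested genes are not given here for the fit with at least 10 counts, nor for both interactions with the identifier block. The causes of these changes were not tested.

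Replicate numbers were not taken to pair the pigs, since same-numbered pigs of 2 groups had correlations of their deviations from −0.231 to 0.381 (median −0.0112, 82 pairs). Between MLE-BDL and MLE-sham they ran from −0.0173 to 0.238 (median 0.181) and were positive in 7 of 8 pairs, and there all 8 pairs also share the number in the pig identifiers. Between SLE-BDL and ENT-BDL they ran from −0.0812 to 0.259 (median 0.129) and were positive in 8 of 10 pairs, and in no comparison were all pairs over 0.1. With either block the MLE count after BDL stayed near its 5 genes, at 5 with the replicate block and 6 with the identifier block. With the replicate block, 6 genes passed after BDL on ENT, 6 between MLE-sham and ENT-sham, and 2 in the SLE against ENT interaction, against 8, 7, and 0 without it, beside 15.1%, 18.6%, and 2.3% of all tested genes with this block.

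Over the 60 fits that left out 1 pig each, the number of genes that passed ranged from 4 to 15 after BDL on ENT, 1 to 8 on SLE, and 2 to 7 on MLE. It ranged from 11 to 16 for SLE-sham and 6 to 9 for MLE-sham against ENT-sham, and from 5 to 7 for SLE-BDL and 7 to 9 for MLE-BDL against ENT-BDL. In the SLE against ENT interaction it ranged from 0 to 3, with 3 without ENT-sham replicate 2, and it was 0 in every such fit of both comparisons of MLE with SLE and of the other 2 interactions. Over all comparisons, the 56 calls were lost in 306 of 3360 cases (9.11%) when 1 pig was left out, and genes without a call gained one in 76 cases. The share of all tested genes that passed also changed between such fits, as given above for BDL on each diet. For the other comparisons that share is not given here. Each tested gene had at least 150 counted reads in every library, but 0 to 2 counts of ABCD2 allow no comparison.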
